A study of Mus musculus with 19 samples.

Results

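The comparison described here set the livers of 5 Gramd1c-/- mice against those of 5 Gramd1c+/+ (wild type) mice, all females on a high cholesterol diet, and these 10 mice were taken by their titles from a series of 19. Each liver gave 1 bulk RNA sequencing library. All 49315 genes of the deposited tables were considered, and 15016 had enough counts to be tested. Values are from all 10 mice unless given for 8 mice, which are those without knockout replicates 3 and 5, whose libraries stood apart. Replicate numbers are those of the sample titles, and the main test did not use them to pair a knockout with a wild type mouse.

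The knockouts carried the tm1a(KOMP)Wtsi allele of Gramd1c in every tissue, on a C57BL/6N-Atm1Brd background, and were bred with their wild type littermates from heterozygous parents. At 8 weeks of age the females moved from chow to a synthetic diet with 0.2% cholesterol by weight, and they stayed on it for 4 weeks. The other 9 mice of the series, 5 wild type and 4 knockout on a diet with 0.02% cholesterol, entered the model to estimate the spread between mice and for 1 test of whether the genotype effect differed between the diets. The question of the comparison was whether loss of Gramd1c alters liver gene expression when dietary cholesterol is plentiful.

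Gramd1c encodes Aster-C, one of the Aster proteins, which sit in the endoplasmic reticulum and carry cholesterol there from the plasma membrane. Cholesterol that reaches the endoplasmic reticulum holds back the processing of SREBP2, the transcription factor that drives the genes of cholesterol synthesis. Oxysterols activate LXR, which raises sterol export genes, and bile acids made from cholesterol activate FXR. Genes under each of these controls therefore serve as readouts of the sterol seen by the hepatocyte.

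The tissue label of the samples names gonadal fat while another label and the protocols name liver. Albumin took 5.25% to 7.93% of the counts in these 10 libraries, and the adipocyte gene Adipoq had at most 13 counts. Total counts ran from 28493865 to 34669648 in the wild type and from 27149972 to 33961735 in the knockout libraries. Pairs of libraries of 1 genotype differed far beyond counting error, with a chi-square per gene of 45.7 to 246 where counting error alone gives about 1.

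Gramd1c was lower in every knockout than in any wild type liver. Its level was 11.7, 9.56, 9.66, 11.5 and 10.8 TPM in wild type mice 1 to 5 and 1.07, 1.58, 1.67, 1.27 and 3.61 TPM in knockout mice 1 to 5, where TPM is a count scaled by gene length and by the total of the library. The means were 10.6 ± 0.996 and 1.84 ± 1.02 TPM (SD, n = 5 each). The log2 fold change, here always knockout minus wild type, was -2.58 (SE 0.271, edgeR adjusted p = 0.000118), and it was -3.05 (SE 0.206, edgeR adjusted p = 2.09e-07) without knockout mice 3 and 5. The two-sided exact permutation test of TPM, over every split of the 10 mice into 5 and 5, gave p = 0.00794, the smallest that 5 against 5 can give. Knockout mouse 5 was the highest of its group, with 251 counts where the other knockouts had 74 to 113. The gene lies on the minus strand of chromosome 16 from 43980350 to 44063345 (GRCm38), and a count for the whole gene does not show which exons the reads of the knockouts came from.

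The other Aster genes did not pass the test. Gramd1a, which encodes Aster-A, was at 3.10, 4.43, 3.09, 4.54 and 3.56 TPM in wild type and 3.50, 3.03, 4.02, 4.36 and 8.62 TPM in knockout livers. Gramd1b, which encodes Aster-B, was at 0.771, 0.643, 0.680, 1.05 and 0.684 TPM in wild type and 0.780, 0.705, 1.67, 0.964 and 0.889 TPM in knockout livers. The groups overlapped for both genes, and in each the highest value belonged to a library that stood apart, knockout 5 for Gramd1a and knockout 3 for Gramd1b. Without these 2 mice the log2 fold change of Gramd1a went from 0.29 to -0.08 (95% interval -0.41 to 0.25) and that of Gramd1b from 0.30 to 0.07 (-0.81 to 0.95). Of the 15 Aster and sterol transfer genes tested, which include Stard3, Npc1 and Osbp, Gramd1c was the only one called, and the median log2 fold change was -0.05. Of 31 genes that start within 1 Mb of Gramd1c, 11 were tested and none was called, with log2 fold changes from -0.34 (Sidt1) to 0.47 (Spice1). With 8 mice none was called either, and the values ran from -0.89 (Sidt1) to 0.71 (Cd200r1), with Spice1 at -0.01.

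**Figure D1:**
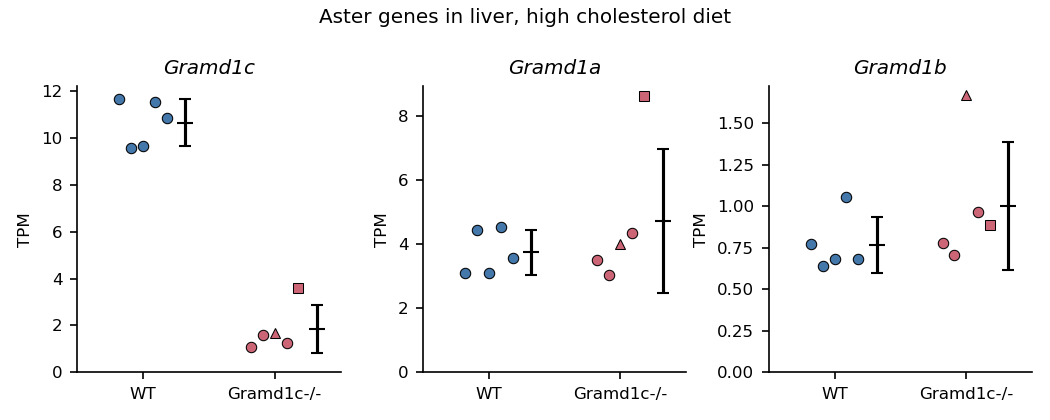
Level of the 3 Aster genes in TPM (vertical axes) in each wild type (blue) and Gramd1c-/- (red) liver on high cholesterol, with the group mean and SD (n = 5) beside the points. The triangle is knockout replicate 3 and the square knockout replicate 5. The Gramd1c groups do not overlap, and the highest Gramd1a and Gramd1b values are those of knockouts 5 and 3.

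Gramd1c was the single gene called across the liver transcriptome. At a Benjamini-Hochberg adjusted p below 0.05 in edgeR's quasi-likelihood test, 1 of 15016 genes passed with 10 mice (0.00666%) and 1 of 15098 without knockouts 3 and 5 (0.00662%). The next gene had an adjusted p of 0.99996 with 10 mice (Dmbt1) and 0.9996 with 8 (Zc3h6). The call was the same with DESeq2, with limma on voom weights and with limma on log2 TPM. At an unadjusted p below 0.05 there were 364 genes (2.42%) with 10 mice, 264 of them higher and 100 lower in the knockouts, and 414 genes (2.74%) with 8 mice, 227 higher and 187 lower. Both sets held 107 genes in common, all with the same direction, which is 29.4% of the first set and 25.8% of the second. Over all genes tested, 52.2% of the log2 fold changes were positive with 10 mice and 51.0% with 8. The medians over all genes were 0.01 and 0.00. Counts of positive and negative members in the lists below are to be read beside these values. The median 95% interval reached 0.395 to either side of the log2 fold change with 10 mice and 0.418 with 8. For a typical gene, changes much smaller than that could not be detected with this number of mice. The interval is for 1 gene without adjustment, so a call over all genes needed a change larger still. A typical gene with a change somewhat above 0.395 could therefore go uncalled.

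**Figure D2:**
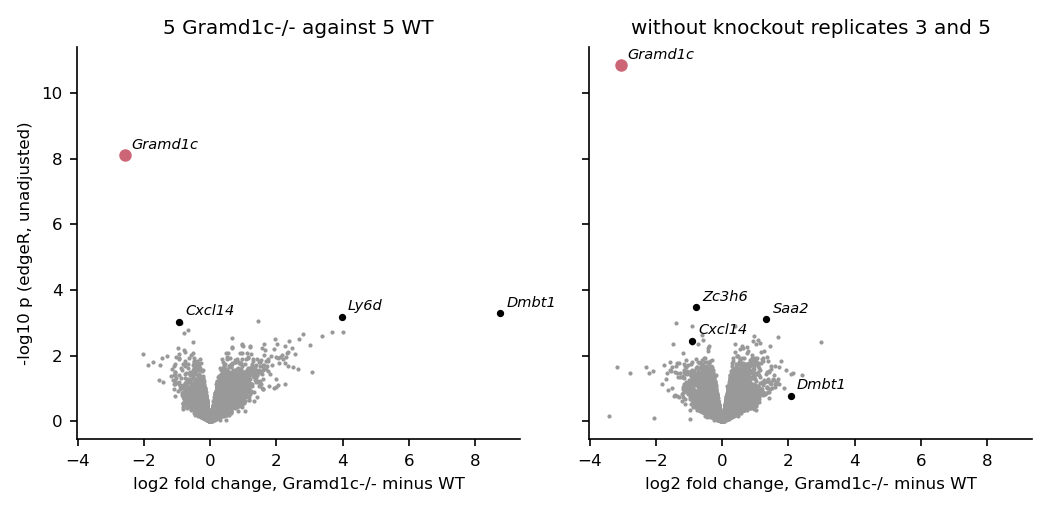
Each point is a gene, with the log2 fold change of Gramd1c-/- minus wild type on the horizontal axis and -log10 of the unadjusted edgeR p on the vertical axis, for all 10 mice (left) and without knockout replicates 3 and 5 (right). Red marks the called gene, Gramd1c. Dmbt1 and Ly6d lie far to the right with 10 mice, and Dmbt1 falls to 2.07 with 8.

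Few genes had groups that did not overlap. All 5 knockouts lay above all 5 wild types in CPM (counts scaled by library total and its TMM factor, with no gene length) for 12 genes (0.0799% of those tested) and below them for 19 (0.127%). If genotype made no difference, 5 mice would separate fully from 5 with a probability of 0.00794 per gene. Full separation was rarer than that here, so by itself it singles out no gene. With 3 knockouts against 5 wild types, where separation is easier, the numbers were 78 (0.517%) and 128 (0.848%). Apart from Gramd1c, the separated genes with the smallest p were Cxcl14, Cxcl5 and Lox, which were lower, and Zfp174, a zinc finger gene, which was higher.

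Knockout mouse 3 held transcripts of gallbladder and bile duct epithelium. Dmbt1, a secreted scavenger receptor of mucosal epithelia, was at 251 TPM in this library and at most 0.897 TPM in the other 9. Krt19, a keratin of biliary epithelium, stood at 120 TPM against 1.17 to 2.37, and Muc1, a membrane mucin, at 52.7 against 0.390 to 1.28 TPM. Ly6d (222 TPM), Cd24a (77.5 TPM) and the pancreatic protease gene Ctrb1 (58.9 TPM) completed the 6 genes by which it differed most. The 15 gallbladder and bile duct markers summed to 318 TPM there, 67.1 to 103 TPM in the other knockouts and 74.7 to 93.8 TPM in the wild types. The 6 smooth muscle markers, with Myh11 and Actg2, summed to 120.5 TPM there and to no more than 27.3 TPM elsewhere. The 8 exocrine pancreas markers summed to 80.0 TPM there and to 16.8 to 44.7 TPM elsewhere, with Ctrb1 and Cela1 making up the sum in knockout 3 and 3 markers without a count in any of the 10 mice. In whole tissue, fewer cells of a type and less RNA per cell cannot be told apart.

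Knockout mouse 5 differed in another way. Malat1, a long noncoding RNA kept in the nucleus, was at 282 TPM in this library and at 27.03 to 69.2 TPM in the other 9, and Neat1, the noncoding scaffold of nuclear paraspeckles, at 38.0 against 3.32 to 10.2 TPM. The 8 nuclear noncoding RNAs listed summed to 391 TPM against 56.1 to 94.8 TPM. The 6 genes by which this liver differed most were all genes whose level in mouse liver depends on sex. Cyp3a41a (0.947 TPM against a median of 109 in the other 9), A1bg (9.99 against 461), Cyp2b13 (10.1 against 312) and Sult2a1 (0.142 against 30.7), which are higher in females, were lowest in it. Mup7 (204 TPM against a median of 5.17) and Hsd3b5 (173 against 5.32), which are higher in males, were highest. Xist, the noncoding RNA of the inactive X chromosome in females, was at 68.99 TPM in knockout 5 and 16.6 to 28.4 TPM in the other 9. Knockout 5 also had the lowest weight of all 19 libraries when voom weighed them by their spread, at 0.222, followed by wild type 3 at 0.383.

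**Figure D3:**
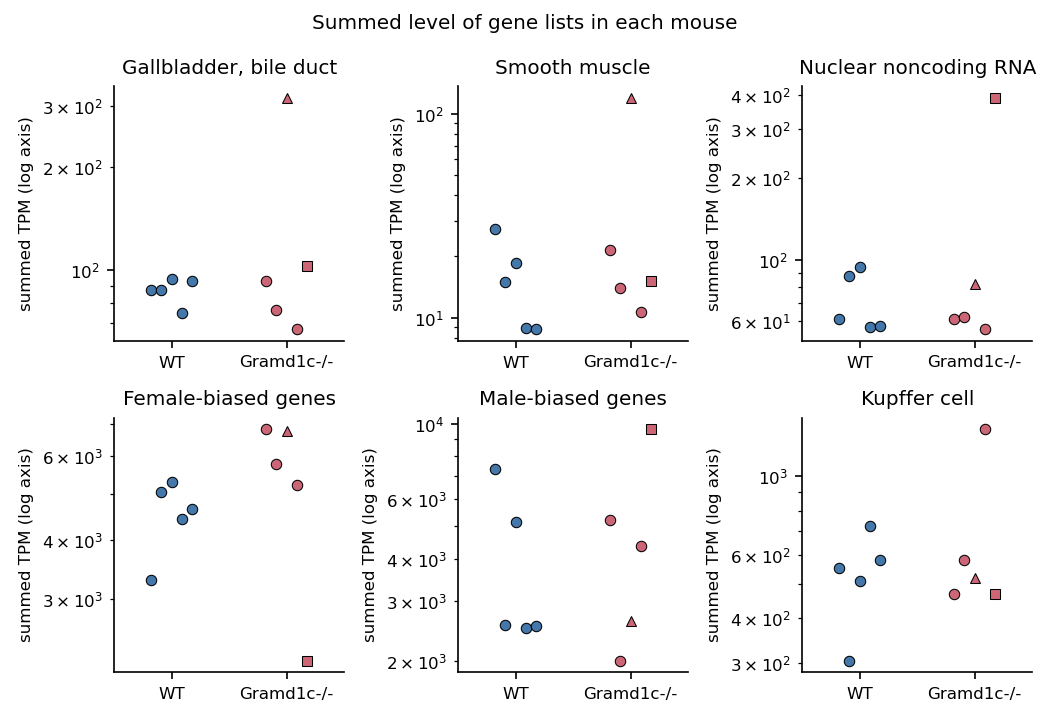
Summed TPM (vertical log axes) of 6 gene lists in each of the 10 livers, wild type in blue and Gramd1c-/- in red, with knockout replicate 3 as a triangle and replicate 5 as a square. Knockout 3 is highest for gallbladder and smooth muscle markers, knockout 5 for nuclear noncoding RNA and male-biased genes, and knockout mouse 4, drawn as a circle, for Kupffer cell markers.

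The genes with the smallest p among those higher with 10 mice were mostly those of the epithelium in knockout 3. By the rule for named genes they were Dmbt1, Ly6d, Abhd11os, Krt19, Cd24a, Muc1, Lgals4 and Elf3. Krt19 went from a log2 fold change of 3.69 (SE 1.03, edgeR unadjusted p = 0.00188) to -0.07 (SE 0.395) without knockouts 3 and 5, and Muc1 from 3.37 to -0.40. Cd24a went from 2.79 to 0.09, Elf3, an epithelial transcription factor, from 2.68 to 0.48, and Lgals4, an intestinal galectin, which was high in knockouts 3 and 5 (28.4 and 40.0 TPM), from 1.96 to 0.09. Ly6d went from 3.97 to 1.06 (edgeR unadjusted p = 0.0335), and Abhd11os, a noncoding RNA, from 1.43 to 0.76 (edgeR unadjusted p = 0.0292).

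Lower genes depended less on these mice. Cxcl14, a chemokine, was at 1.78, 2.15, 3.17, 2.40 and 2.75 TPM in wild type and 1.36, 0.887, 1.99, 1.80 and 0.911 TPM in knockout livers. Cxcl5, a chemokine that attracts neutrophils, was at 7.57, 7.68, 7.82, 15.3 and 11.0 TPM in wild type and 5.82, 4.91, 7.04, 4.84 and 4.85 TPM in knockout livers. Neither gene's groups overlapped in CPM, and in TPM those of Cxcl14 did, with knockouts 3 and 4 above wild type 1. The log2 fold change of Cxcl14 was -0.93 (SE 0.239, edgeR unadjusted p = 0.00092) with 10 mice and -0.91 with 8. For Cxcl5 it was -0.89 (SE 0.232, edgeR unadjusted p = 0.00105) and -0.92.

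Lox, which cross-links collagen, was at 4.69, 4.32, 5.06, 7.85 and 7.599 TPM in wild type and 4.02, 3.70, 2.65, 3.48 and 3.41 TPM in knockout livers, with a log2 fold change of -0.80 (SE 0.226, edgeR unadjusted p = 0.00208) and -0.66 with 8 mice. Thbs1, which encodes thrombospondin 1, was at 5.18 to 13.4 TPM in wild type and 3.63 to 5.16 TPM in knockout livers (-0.97, and -0.89 with 8 mice). Wild type mice 4 and 5 were the highest for Lox, Thbs1 and Cxcl5. Fbln2, a fibulin of the matrix, had -0.51 (-0.46 with 8 mice), and Col1a1 and Col1a2, collagen genes named from the stellate cell list, had -0.57 and -0.40 (-0.52 and -0.41). Of the 12 stellate cell and fibroblast markers, 10 had negative values (8 with 8 mice), the values ran from -0.57 to 0.60, and the median was -0.13 in both fits. The summed level of these markers was 408 to 546 TPM in wild type and 357 to 500 TPM in knockout livers.

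Gstm1 and Gstm3, glutathione transferases of detoxification, were also among the lower genes. Gstm1 was at 2227, 2647, 2558, 2245 and 2578 TPM in wild type and 1274, 1535, 1799, 2246 and 1435 TPM in knockout livers, so that knockout 4 alone reached the wild type range. Its log2 fold change was -0.66 (SE 0.182, edgeR unadjusted p = 0.00164) and -0.60 with 8 mice. Gstm3 had -0.94 and -0.79. Both come from a family of similar copies, and the handling of reads shared by copies is not given in the sources used here. Chaf1a, a subunit of the factor that places histones on new DNA, had -0.51 (SE 0.156, edgeR unadjusted p = 0.00398) and -0.57, and its groups did not overlap in CPM but did in TPM. None of these genes passed the adjustment over all genes.

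Without knockouts 3 and 5 a different set led the higher genes. These were Saa2, Rab32, Fabp7, Tgtp1, Scimp, H2-DMa, Cyp3a16 and Rtn4. Saa2, an acute phase serum amyloid, was at 11.1, 8.93, 11.8, 15.3 and 5.89 TPM in wild type and 10.8, 31.2 and 41.6 TPM in knockouts 1, 2 and 4, a log2 fold change of 1.33 (SE 0.331, edgeR unadjusted p = 0.000783). Tgtp1, an interferon-induced GTPase, was at 21.99 TPM in knockout 4 and at 1.53 to 5.55 TPM in the other 9 mice. H2-DMa, which loads peptides on MHC class II, was at 16.6 TPM in knockout 4 and 3.47 to 6.51 TPM in the others. With knockout 4 alone left out of the 10 mice, the log2 fold change of Tgtp1 went from 1.18 to 0.10, that of H2-DMa from 0.62 to 0.20, that of Scimp, an adaptor of antigen-presenting cells, from 0.61 to 0.10 and that of Saa2 from 0.92 to 0.57. Rab32, a small GTPase of organelle traffic, was at 41.7, 51.7 and 51.0 TPM in knockouts 1, 2 and 4 and 28.3 to 42.8 TPM in wild type livers (log2 fold change 0.39, SE 0.103). Fabp7, a fatty acid binding protein, had 0.97 with 8 mice and 0.70 with 10. Rtn4, which shapes the endoplasmic reticulum, was at 34.0 to 56.2 TPM in wild type and 58.9, 65.8, 59.5, 54.7 and 21.5 TPM in knockout livers, with 0.38 for 8 mice and 0.12 for 10.

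Among the lower genes of the 8 mice, beside Gramd1c, Cxcl14, Cxcl5 and Chaf1a, were Zc3h6, Resf1 and Rad50. Zc3h6, a zinc finger gene, was at 1.48 to 1.78 TPM in wild type and at 0.963, 0.931 and 1.04 TPM in knockouts 1, 2 and 4, while knockouts 3 and 5 had 1.504 and 2.17 TPM. Its log2 fold change was -0.80 (SE 0.181, edgeR unadjusted p = 0.00033) with 8 mice and -0.40 with 10. Resf1, which takes part in silencing of retroelements, was at 2.94 to 6.37 TPM in wild type, 2.12, 2.18 and 3.21 TPM in these 3 knockouts and 8.91 TPM in knockout 5, with -0.91 for 8 mice and -0.25 for 10. Rad50, part of the DNA break repair complex, had -0.40 and -0.21.

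**Figure D4:**
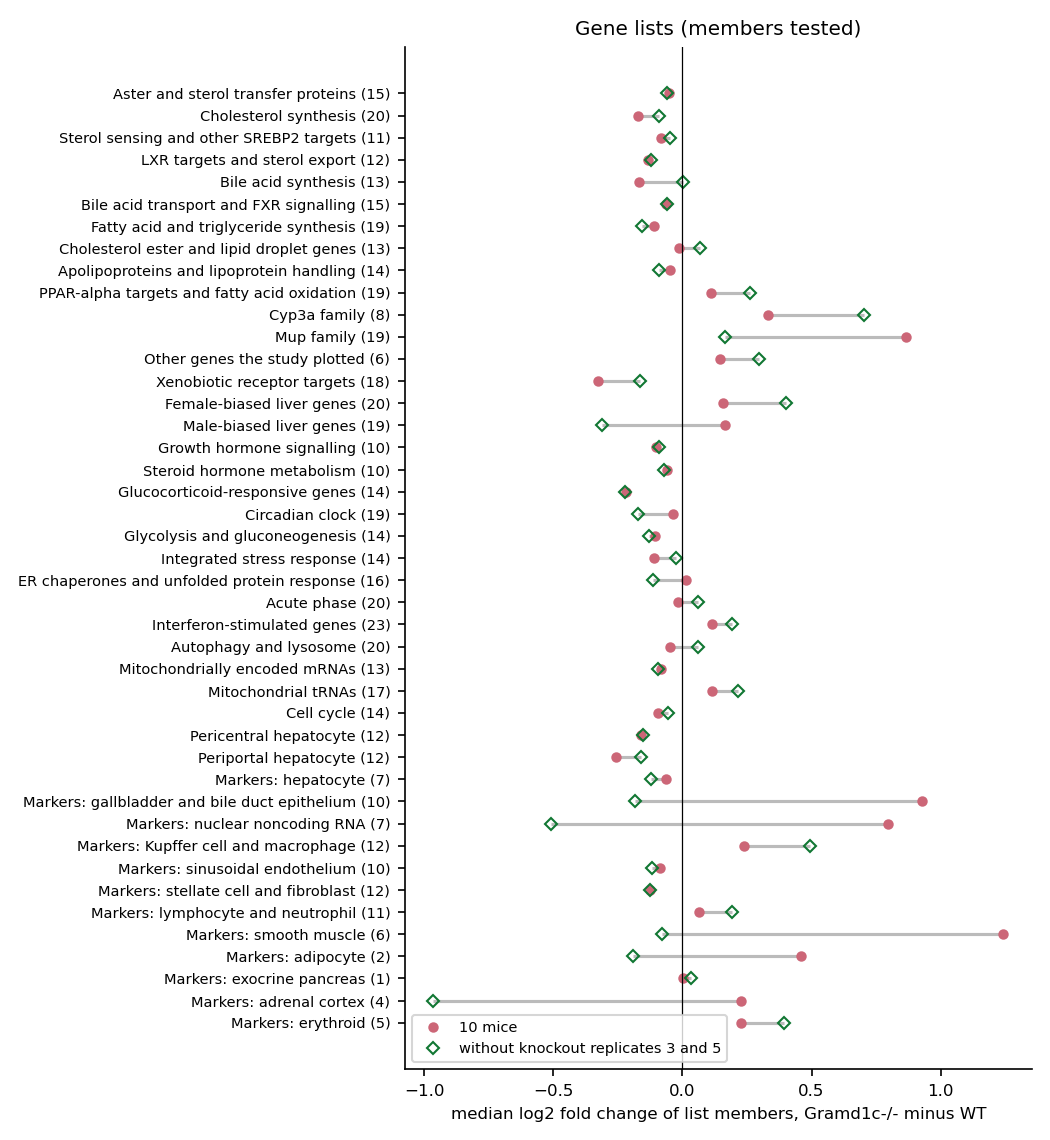
Median log2 fold change (horizontal axis, Gramd1c-/- minus wild type) of the members of each gene list, with the number of members tested with 10 mice in brackets, for 10 mice (filled circles) and without knockout replicates 3 and 5 (open diamonds). Most sterol and lipid lists lie between -0.2 and 0.1 in both fits, while gallbladder, smooth muscle and nuclear noncoding RNA markers cross from above 0.7 to below 0.

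The genes that respond to sterols in the endoplasmic reticulum showed no called difference. Hmgcs1, an early enzyme of the mevalonate pathway, was at 76.0 ± 15.6 TPM in wild type and 74.6 ± 16.2 TPM in knockout livers (SD, n = 5 each). Sqle, the squalene epoxidase, was at 1.94 ± 0.218 and 1.86 ± 0.464 TPM. Dhcr7, which catalyses the last step to cholesterol, was at 9.55 ± 2.52 and 7.88 ± 1.49 TPM. The 95% intervals of their log2 fold changes were -0.55 to 0.34 for Hmgcs1, -0.58 to 0.26 for Sqle and -0.81 to 0.05 for Dhcr7.

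Small negative values ran through the synthesis pathway with 10 mice. Of its 20 enzymes 19 had a negative log2 fold change and 0 were called, with a median of -0.17 beside 0.01 over all genes tested, and the median was -0.09 with 16 negative in 8 mice. Msmo1, a sterol methyl oxidase, was the 1 enzyme with an unadjusted p below 0.05, where the share over all genes was 2.42%. It was at 7.96 to 12.8 TPM in wild type and 5.95 to 8.09 TPM in knockout livers (-0.50, SE 0.188, edgeR unadjusted p = 0.0161, and -0.35 with 8 mice). Fdps, the farnesyl pyrophosphate synthase, had -0.39 (-0.40 with 8 mice). Knockout 5 had the lowest summed level of the pathway, 581 TPM, where the other 9 mice had 775 to 1117.5 TPM. The 11 genes of sterol sensing and other SREBP2 targets had a median of -0.08 (-0.05 with 8 mice) and 0 at an unadjusted p below 0.05.

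LXR targets and sterol export genes had a median of -0.14, with 8 of 12 negative and 0 called. Abcg8, a subunit of the pump that moves sterols into bile, was at 160, 116, 66.6, 183 and 134 TPM in wild type and 80.2, 85.1, 115, 129 and 82.2 TPM in knockout livers. These groups overlapped, and the log2 fold change was -0.48 (SE 0.178, edgeR unadjusted p = 0.0143) with 10 mice and -0.44 with 8. Its partner Abcg5 had -0.25, Abca1, which exports cholesterol to lipoproteins, -0.21, and Srebf1, which drives fatty acid synthesis, -0.36. Abcg1 had a positive value of 0.29. With 8 mice the list's median was -0.12, again with 8 of 12 negative, and these genes had -0.36, -0.28, -0.32 and 0.39.

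Bile acid genes did not pass either. Of 13 synthesis genes 11 had negative values with 10 mice, and 7 were positive with 8, where the median was 0.00 after -0.17. Cyp7a1, the rate-limiting enzyme, was at 48.9 to 124 TPM in wild type and 17.9 to 104 TPM in knockout livers (-0.75 in both fits, edgeR unadjusted p = 0.177 with 10 mice). Cyp27a1, which starts the alternative pathway, had -0.26 (SE 0.122, edgeR unadjusted p = 0.0489) and -0.21, and Acox2, of side chain oxidation, -0.29 and -0.20. Hsd3b7, of nucleus modification, had 0.25 and 0.31. Among 15 genes of bile acid transport and FXR signalling 0 had an unadjusted p below 0.05. Nr0b2, a repressor that FXR induces, was at 17.9 to 50.4 TPM in wild type and 37.4 to 65.6 TPM in knockout livers.

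Fatty acid genes stood out in single mice. Scd1, the stearoyl-CoA desaturase, was at 2322, 2440, 1420, 5793 and 4395 TPM in wild type and 136, 2370, 1446, 2575 and 1331 TPM in knockout livers. Knockout 1 was far below every other mouse, and wild types 4 and 5 were above every other mouse. Its log2 fold change was -1.08 (SE 0.572) with 10 mice and -0.95 with 8, and the 19 fatty acid and triglyceride synthesis genes had a median of -0.11. Mlxipl, the carbohydrate-responsive factor ChREBP, was at 151 TPM in knockout 5 and 34.8 to 63.0 TPM in the other 9, and its value went from 0.56 to 0.00.

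Apoa4, an apolipoprotein of triglyceride-rich particles, was higher in all 5 knockouts than in all 5 wild types when measured in TPM. The values were 185, 202, 194, 162 and 240 TPM in wild type and 470, 293, 286, 251.9 and 265 TPM in knockout livers. The groups overlapped in CPM, the only scale on which separated genes were counted over all genes. The log2 fold change was 0.61 (SE 0.219, edgeR unadjusted p = 0.0115) with 10 mice and 0.76 with 8. Apoa4 was the 1 of 14 apolipoprotein and lipoprotein genes below an unadjusted p of 0.05 in either fit. The share over all genes was 2.42% with 10 mice and 2.74% with 8. PPAR-alpha targets and genes of fatty acid oxidation had positive values in 16 of 19 members, with a median of 0.11, and in 17 of 19 with 8 mice, with a median of 0.26. Cyp4a31, a fatty acid hydroxylase, was the 1 member below an unadjusted p of 0.05 in both fits (0.76 and 0.88), beside the same shares over all genes.

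Cyp3a16, Cyp3a41a, Cyp3a41b and Cyp3a44, steroid and drug hydroxylases that are mainly female in mouse liver, had positive log2 fold changes with wide intervals. Cyp3a16 was at 0.567, 7.49, 18.8, 1.15 and 1.52 TPM in wild type and 78.2, 66.4, 36.2, 8.58 and 0.125 TPM in knockout livers. Knockouts 1, 2 and 3 were above every wild type and knockout 5 was below. The log2 fold change was 2.499 (95% interval 0.41 to 4.59, edgeR unadjusted p = 0.0218) with 10 mice and 2.99 (1.09 to 4.89, edgeR unadjusted p = 0.0039) with 8, and exact permutation of the TPM values gave p = 0.0952 and p = 0.0357. Cyp3a41a was at 1.57, 109, 104, 14.99 and 63.9 TPM in wild type and 139, 331, 136, 122 and 0.947 TPM in knockout livers. In TPM, knockouts 1 to 4 exceeded every wild type and knockout 5 was below all of them. In CPM the groups overlapped, also with 8 mice. The log2 fold change was 1.16 with 10 mice and 1.66 with 8. The permutation p, not adjusted for the number of genes, was 0.151 and 0.0179, the smallest possible with 3 against 5.

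Cyp3a41b, a near copy of Cyp3a41a whose reads may be shared with it, had 1.59 and 2.08, and Cyp3a44 had 0.77 and 1.31. Cyp3a11, the most abundant member, was at 1471 to 2881 TPM in wild type and 929 to 2102 TPM in knockout livers, with a negative value (-0.46, and -0.23 with 8 mice). The family of 8 tested genes thus had 4 positive and 4 negative values with 10 mice, with a median of 0.33. Of these, 1 higher and 1 lower gene were below an unadjusted p of 0.05, where the share over all genes was 2.42%. With 8 mice 5 were positive and 3 negative, with a median of 0.70. Here 3 genes, all higher, were below 0.05, where the share over all genes was 2.74%. The genotype effect of Cyp3a16 had opposite directions on the diets, with 2.499 on high and -4.08 on low cholesterol, a difference of 6.58 on the log2 scale (SE 1.56, edgeR unadjusted p = 0.000441). Across all genes this difference between the diets was called for 0 genes at an adjusted p below 0.05 in edgeR, with 250 genes at an unadjusted p below 0.05. Without knockouts 3 and 5 it was again called for 0 genes, with 518 at an unadjusted p below 0.05 in edgeR.

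The major urinary proteins, lipocalins that carry pheromones and are mainly male, had a median log2 fold change of 0.87 with 18 of 19 positive, and of 0.16 with 13 of 19 positive once knockouts 3 and 5 were left out. Mup7 was at 74.8, 5.17, 8.82, 2.19 and 1.16 TPM in wild type and 12.5, 3.95, 1.79, 8.27 and 204 TPM in knockout livers. Mup20, the male pheromone darcin, was at 611, 137, 147, 129 and 90.1 TPM in wild type and 226, 101, 115, 145 and 813 TPM in knockout livers. Wild type 1 and knockout 5 were the highest of their groups for both genes. Mup7 went from 1.33 to -1.22, Mup20 from 0.31 to -0.55, Mup11 from 1.56 to 0.72 and Mup12 from 1.01 to 0.22. These genes are near-identical copies, so that counts of single members are uncertain.

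Wild type 1 and knockout 5 also stood together in the wider lists of sex-biased genes. The 20 female-biased genes summed to 3287, 5049, 5289, 4414 and 4640 TPM in wild types 1 to 5 and to 6832, 5765, 6783, 5224 and 2224 TPM in knockouts 1 to 5. The 20 male-biased genes summed to 7360, 2555, 5110, 2498 and 2537 TPM in wild types and to 5203, 1998, 2610, 4341 and 9634 TPM in knockouts. Knockout 5 was the lowest of the 10 for the first and the highest for the second, and wild type 1 was next in both. The median log2 fold change of the female-biased genes was 0.16 with 10 mice and 0.40 with 8, where 18 of 20 were positive. That of the male-biased genes was 0.16 and -0.31, where 4 of 19 were positive. The 8 mice left out knockout 5 but kept wild type 1. This bears on the values with 8 mice for these lists and for Mup7, Mup20 and Susd4, which were high in both mice. With wild type 1 alone left out, the median was 0.52 for the male-biased and 0.05 for the female-biased genes. With knockout 5 alone left out, these medians were -0.41 and 0.32. With 10 mice 1 of the 20 female-biased and 0 of the 19 male-biased genes had an unadjusted p below 0.05, and with 8 mice 1 and 3. The shares over all genes were 2.42% with 10 mice and 2.74% with 8.

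**Figure D5:**
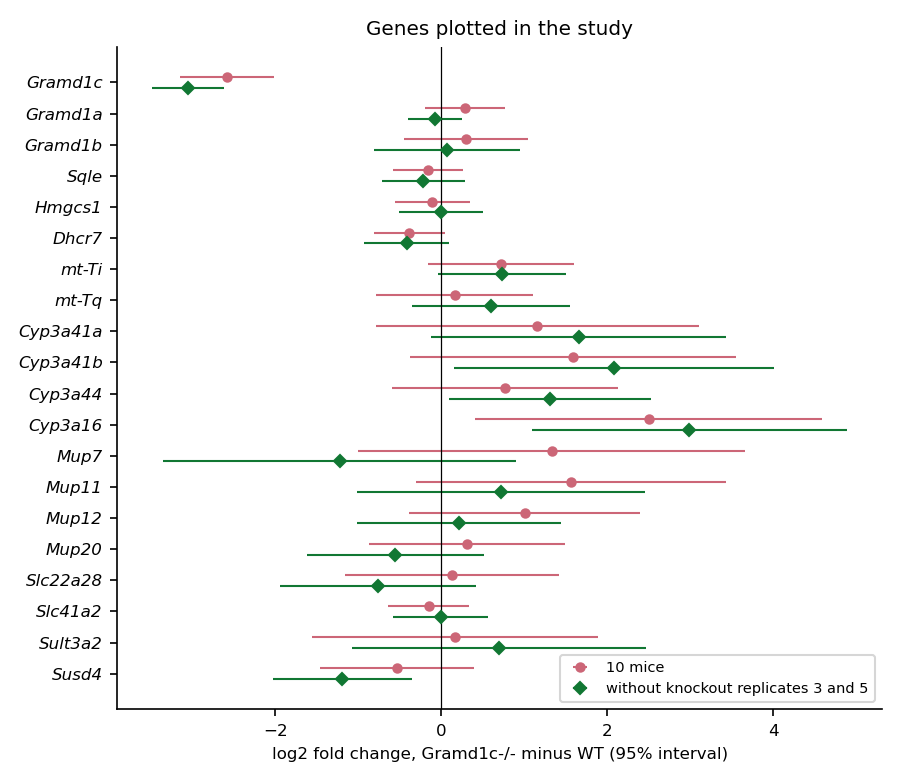
Log2 fold change of Gramd1c-/- minus wild type with its 95% interval (horizontal axis) for 20 of the 22 genes whose liver mRNA the study plotted, from 10 mice (circles) and without knockout replicates 3 and 5 (diamonds). The interval of Gramd1c lies below 0 and that of Cyp3a16 above 0 in both fits, and Mup7, Mup20, Slc22a28 and Gramd1a change sign between them.

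The transcripts of mitochondrial tRNAs for isoleucine and glutamine, mt-Ti and mt-Tq, are shown because they are plotted genes that lie on opposite strands and share 3 bases, so that without strand information reads over the shared end cannot be told apart. The sequences are from GENCODE M21 (GRCm38), each 5′ to 3′ on its own strand, and capitals mark the shared bases, MT 3772 to 3774.
mt-Ti, plus strand, MT 3706 to 3774: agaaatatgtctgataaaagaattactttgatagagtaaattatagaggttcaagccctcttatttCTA
mt-Tq, minus strand, MT 3772 to 3842: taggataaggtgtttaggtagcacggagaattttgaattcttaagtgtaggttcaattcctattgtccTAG

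The level of mt-Ti was 104, 103, 139, 50.6 and 86.8 TPM in wild type and 253, 163, 45.1, 81.2 and 281 TPM in knockout livers, and that of mt-Tq 102, 68.2, 216, 115 and 92.8 TPM and 161, 323, 57.4, 72.2 and 80.4 TPM. The groups overlapped widely, and the highest knockout was mouse 5 for mt-Ti and mouse 2 for mt-Tq. The log2 fold change was 0.72 (SE 0.421) for mt-Ti and 0.16 (SE 0.454) for mt-Tq with 10 mice, and 0.73 and 0.60 with 8. Over 17 mitochondrial tRNAs tested the median was 0.11, and over 13 mitochondrial mRNAs it was -0.08, with 0 of either at an unadjusted p below 0.05. With 8 mice the medians were 0.22 and -0.09, and 2 of the tRNAs and 0 of the mRNAs were below 0.05, where the share over all genes was 2.74%. The libraries were made from poly(A) RNA, which tRNAs mostly lack, so these values are for what passed that selection.

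The remaining plotted genes were an organic anion transporter gene, Slc22a28 (0.13, and -0.76 with 8 mice), a magnesium transporter gene, Slc41a2 (-0.15 and -0.01), a sulfotransferase gene, Sult3a2 (0.17 and 0.70), and the complement regulator gene Susd4. Susd4 was at 7.49, 3.65, 3.19, 3.52 and 1.55 TPM in wild type and 1.40, 1.29, 1.54, 2.66 and 7.004 TPM in knockout livers. Knockout 5 stood with wild type 1 at the top, and the log2 fold change was -0.53 (SE 0.446) with 10 mice and -1.19 (SE 0.401, edgeR unadjusted p = 0.00822) with 8. Of the 22 plotted genes, Gramd1c was the 1 with an exact permutation p below 0.05 in 10 mice, before any adjustment for 22 tests. With 8 mice Cyp3a41a and Cyp3a16 joined it, also before adjustment. After Benjamini-Hochberg adjustment over the 22 genes no permutation p was below 0.05. Gramd1c had 0.175 with 10 mice, and with 8 mice Gramd1c and Cyp3a41a had 0.196 and Cyp3a16 0.262.

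The list of xenobiotic receptor targets, detoxification genes together with the genes of the receptors PXR and CAR, had a median of -0.33 with 14 of 18 negative. Of its members 3 were below an unadjusted p of 0.05 (Gstm1, Gstm3 and Ephx1), where the share over all genes was 2.42%. With 8 mice the median was -0.16, with 11 of 18 negative and 1 below an unadjusted p of 0.05, where the share was 2.74%. Ephx1, an epoxide hydrolase, was at 440 to 742 TPM in wild type and 420 to 556 TPM in knockout livers (-0.31, and -0.24 with 8 mice). Periportal hepatocyte genes such as Hal and Ass1 had a median of -0.26 (11 of 12 negative) and pericentral genes one of -0.16 (9 of 12 negative), with 0 below an unadjusted p of 0.05 in both lists. With 8 mice these were -0.16 (10 negative) and -0.15 (8 negative). Knockout 5 had the lowest summed level of both zones. Glucocorticoid-responsive genes had negative values in 14 of 14 members with a median of -0.22, and the median ran from -0.53 to -0.06 when single mice were left out. With 8 mice 12 of 14 were negative, with the same median of -0.22.

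Inflammatory gene groups leaned to higher values in knockout 4. Of 23 interferon-stimulated genes 20 were positive with 10 mice (median 0.11, 1 below an unadjusted p of 0.05, where the share over all genes was 2.42%). With 8 mice 21 were positive (median 0.19, 5 below, where the share over all genes was 2.74%). With 10 mice the 1 was Stat2, a transducer of interferon signals, at 12.3 to 21.5 TPM in wild type and 14.2 to 34.0 TPM in knockout livers (0.45, edgeR unadjusted p = 0.0264, and 0.22 with 8 mice). With 8 mice the 5 were Oas1a, Zbp1, Gbp2, Gbp3 and Ifi27l2a, and knockout 4 summed to 349 TPM for the list, where the other 9 had 180 to 279 TPM. Zbp1, a nucleic acid sensor, was at 3.43 to 5.45 TPM in wild type and 5.54, 5.70, 3.70, 10.4 and 6.08 TPM in knockout livers. The 12 Kupffer cell and macrophage markers, with Clec4f and Cd5l, summed to 1351 TPM in knockout 4 and 304 to 724 TPM in the others. Their median log2 fold change was 0.24 (0.50 with 8 mice), and it was -0.14 without knockout 4. The median of the interferon list was 0.03 without that mouse. Acute phase genes had a median of -0.02 (0.06 with 8 mice), and lymphocyte and neutrophil markers one of 0.06 (0.19).

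Growth hormone signalling had a median of -0.10 (9 of 10 negative), with Cish, a feedback inhibitor of the pathway, at -0.81 and Stat5a, one of its transcription factors, at 0.29. With 8 mice Cish was at -1.32 (edgeR unadjusted p = 0.0452), and without wild type 5, at 14.6 TPM where the other wild types had 1.29 to 5.59 TPM, it was at -0.14. The list's median with 8 mice was -0.09. Steroid hormone metabolism had a median of -0.06 (-0.07 with 8 mice), the circadian clock -0.04 (-0.17), glycolysis and gluconeogenesis -0.11 (-0.13), cholesterol ester and lipid droplet genes -0.01 (0.07), and autophagy and lysosome genes -0.05 (0.06). Integrated stress response genes had -0.11 (-0.03), with Chac1, which degrades glutathione, at 3.86 to 23.7 TPM in wild type and 4.35 to 14.8 TPM in knockout livers (-0.87, edgeR unadjusted p = 0.0467, and -0.71 with 8 mice). Endoplasmic reticulum chaperones had 0.01 (-0.11), cell cycle genes -0.10 (-0.06) and sinusoidal endothelial markers -0.09 (-0.12). Hepatocyte markers had -0.06 (-0.12). The 5 erythroid markers tested had 0.23, and 0.39 with 8 mice, where 2 were below an unadjusted p of 0.05 and the share over all genes was 2.74%. Of the 8 adrenal, 6 adipocyte and 8 pancreatic markers only 4, 2 and 1 had enough counts to be tested with 10 mice, with medians of 0.23, 0.46 and 0.00, and with 8 mice the medians were -0.96 (5 tested), -0.19 and 0.03. None of the members of these lists was called in either fit.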

How the data were processed

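Liver RNA was selected for poly(A), made into libraries with the NEBNext Ultra kit and sequenced on an Illumina NovaSeq. For each mouse the authors deposited a table of whole-number counts by Ensembl gene, with positions and lengths. STAR 2.5.2b and the GRCm38 build appear in the submitters' processing notes. Which tool counted the reads, with what strand setting and on which annotation, is not stated by the paper, the labels or the headers. The deposited counts were not normalized. Of 49315 identifiers 48970 were matched to a symbol.

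The main test was edgeR 4.0.16 under R 4.3.3 (normalization by TMM, filterByExpr with a minimum count of 10, quasi-likelihood F test, 1 coefficient per group over all 19 mice), with Benjamini-Hochberg adjustment and a threshold of 0.05. The fit without knockout replicates 3 and 5 repeated every step on 17 mice. TPM was computed from counts and lengths and tested with two-sided exact permutation tests. The edgeR p-values set the difference between groups against the spread between mice, estimated over all 19 mice or the 17. The permutation p-values place the difference of mean TPM among those of all splits of the high cholesterol mice. The script was tested on simulated data. Alternatives were RLE size factors, no filter, a stricter filter (50 counts in 5 libraries), the high cholesterol mice alone, DESeq2 1.42.0, limma 3.58.1 on voom with sample weights or on log2(TPM + 1), a replicate block, and single mice left out. Named genes were Gramd1c, called genes, the 8 higher and 8 lower genes of smallest p in each fit (at least 1 TPM, no predicted genes), 22 genes the study plotted, up to 3 members of smallest p per list, and 6 genes per library that stood apart. Other genes (Cyp7a1, Abca1, Abcg5, Nr0b2, Oas1a, Gbp2, Ifi27l2a Stard3, Npc1, Osbp, Zfp174) were named after their values were seen. The 31 gene lists, 12 marker lists and members were chosen with earlier results of these data known. A list is described by its counts and median, to be read beside those given for all genes. Some genes that the rule names are not reported here.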

Additional observations from a re-analysis of the deposited data

Results flagged for a closer look

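In 29 of 150 groups of 5 mice, 1 liver or library lay far from the rest, where the gap to its nearest neighbour, as a share of the group's range, passed Dixon's critical value of 0.71. Chance gives this in about 5% of groups, but many of these genes were named because knockouts 3 and 5 stood apart, so the 29 cannot be read against that rate.

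Knockout 3 was the highest of its group for 8 genes. The gap was 0.997 of the range for Krt19, 0.996 for Dmbt1, 0.99 for Elf3, 0.987 for Muc1, 0.984 for Cd24a and 0.969 for Ly6d, all of the epithelial set. It was 0.732 for Gramd1b and 0.729 for Chaf1a.

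Knockout 5 lay apart for 10 genes. It was highest for Mup7 (0.947), Malat1 (0.91), Slc22a28 (0.855), Mup20 (0.825), Mlxipl (0.801), Resf1 (0.796), Gramd1c (0.765), Gramd1a (0.763) and Susd4 (0.761), and lowest for Rtn4 (0.749). Wild type 1 was highest of its group for the same male-biased genes Mup7 (0.896) and Mup20 (0.891), and for Dmbt1 (0.752), which was at 0.353 TPM there.

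Knockout 4 was highest for Tgtp1 (0.9), H2-DMa (0.86), Slc41a2 (0.827) and Cd5l (0.779), a protein of tissue macrophages. Knockout 1 was highest for Apoa4 (0.809). Wild type 4 was highest for Srebf1 (0.752), at 229.9 TPM, and had the highest total count (0.73), and wild type 3 had the highest share of mitochondrial counts (0.812), at 7.27%. What set these livers apart was not tested.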

How the results depend on the processing

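Gramd1c was the 1 gene called in every setting, with a log2 fold change of -3.05 to -2.09. The number of genes at an unadjusted p below 0.05 with 10 mice (364 in edgeR) was 1040 with no filter, 193 with the stricter filter, 184 with the high cholesterol mice alone and 303 to 642 with single mice left out (642 without knockout 2, 552 without knockout 4). With 8 mice (414) it was 825 with no filter and 240 with the high cholesterol mice alone. The number of genes whose groups did not overlap (31) was 56 with no filter, 17 with the stricter filter, 206 without knockouts 3 and 5, and 62 to 91 with single mice left out, where fewer mice make separation easier. Of the plotted genes 1 had an unadjusted permutation p below 0.05, 3 without knockouts 3 and 5, and 1 to 4 with single mice left out (4 without knockout 5). For the plotted genes these settings were chosen after seeing the data, as was the test of the diet difference without knockouts 3 and 5.

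Mice with the same replicate number did not consistently deviate together (r from -0.350 to 0.286 over genes). These few correlations cannot show whether the numbers pair mice, and the sources used here do not say. With the number as a replicate block 229 genes had an unadjusted p below 0.05 with 10 mice and 246 with 8, and the log2 fold changes of Mup7, Mup20 and Slc22a28 were -0.32, -0.0061 and -0.19.

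Of 69 named genes 55 kept their direction in every setting. Without knockouts 3 and 5 the log2 fold change turned for Gramd1a (-0.0765), Krt19 (-0.0745), Muc1 (-0.40), Mlxipl (-0.0022), Mup7 (-1.22), Mup20 (-0.55), Slc22a28 (-0.76) and Malat1 (-0.51). With voom and sample weights it turned for Hmgcs1 (0.0357), Mup20 (-0.0465), Slc22a28 (-0.21) and Slc41a2 (0.0204), and with limma on log2(TPM + 1) for Slc22a28 (-0.0363). With single mice left out the range crossed 0 for Gramd1a (-0.11 to 0.41), Krt19 (-0.10 to 4.00), Muc1 (-0.18 to 3.69), mt-Tq (-0.44 to 0.61), Mup7 (-1.55 to 3.34), Mup12 (-0.0807 to 1.57), Mup20 (-0.70 to 1.12), Slc22a28 (-0.98 to 0.72), Sult3a2 (-0.59 to 1.37), Cd5l (-0.0675 to 0.58) and Malat1 (-0.42 to 1.24). None of these genes was called in any setting. The median of 11 of 43 lists changed sign without knockouts 3 and 5, of 9 with voom, and of 0 with RLE size factors or DESeq2. The causes were not tested. With 5 mice a group the typical 95% interval reached 0.395 to either side on the log2 scale, and smaller differences are not resolved. That interval is not adjusted over all genes, so a call needed a larger difference.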
